A study of Mus musculus with 6 samples.

Results

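The genes described are the Pim kinases, the Socs family and the Stat factors that drive them: Pim1, Pim2, Pim3, Cish, Socs1, Socs2, Socs3, Stat5a, Stat5b and Stat3. They were chosen by name, and every probe set whose platform annotation gives 1 of these symbols alone was read, which gave 25 probe sets for 10 genes among 45037 probe sets for 18193 genes. The cells are a myeloid clone, C6, of mouse haematopoietic progenitors from the Rosa26rtTA C57BL/6J background, carrying the lentiviral vector pRRL.TET.Evi1.IRES.EGFP, a doxycycline-driven construct for murine Evi1 with optimized codons. The dox group is 3 arrays of C6 cells under doxycycline at 1 µg/ml, and the withdrawal group is 3 arrays of C6 cells 48 h after the drug was removed. Both groups carry the vector and the rtTA allele and grew in murine stem cell factor (50 ng/ml), murine interleukin 3 (20 ng/ml), human Flt3 ligand (50 ng/ml) and human interleukin 11 (50 ng/ml). The comparison asks how these transcripts differ once the inducer of Evi1, a zinc finger transcription factor on which the clone is said to depend, has been taken away. All samples are 1 clone, and loss of the drug and loss of Evi1 cannot be told apart. The labels do not say that replicates came from separate cultures, so p-values speak of the spread among these arrays only, part or all of which can be technical.

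Interleukin 3 binds a receptor that uses the common beta chain, and the kinase Jak2 on that receptor phosphorylates Stat5a and Stat5b, which then enter the nucleus and switch on target genes. Interleukin 11 acts through the shared chain gp130, which mainly activates Stat3. Among the classic Stat5 targets are the Pim genes, which encode serine and threonine kinases that are active as soon as they are made and favour survival and protein synthesis, and Cish and the Socs genes, which encode proteins that bind the receptor or Jak2 and damp the signal. In myeloid progenitors the levels of these transcripts are therefore often used as a readout of cytokine signalling.

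Stat5 and Stat3 dimers bind the palindrome TTCNNNGAA, which reads the same on both strands. The RefSeq promoter table of build GRCm38.p6, with windows of 300 bases from 250 before to 50 after a listed start, held 12 windows for 9 of the 10 genes, and Socs2 had no entry. The palindrome was present in 2 of these 12 windows, those of Cish and Socs3, against 8.30% of all 32851 windows. The window of Cish held 2 copies, separated by 2 bases and beginning at the first base after the listed start, and 0.457% of all windows held 2 or more. The sequences of Cish and Socs3 are shown because they carry the palindrome, in capitals, and that of Pim2 because it had the largest change among the 10 genes. The first is a stretch of 24 bases on the plus strand of chr9:107296657-107296680, the next the 250 bases before the start of Socs3 on the minus strand of chr11:117969367-117969616, and the last the 250 bases before the start of Pim2 on the plus strand of chrX:7878056-7878305.
Cish: ttTTCCTGGAAagTTCTTGGAAat
Socs3: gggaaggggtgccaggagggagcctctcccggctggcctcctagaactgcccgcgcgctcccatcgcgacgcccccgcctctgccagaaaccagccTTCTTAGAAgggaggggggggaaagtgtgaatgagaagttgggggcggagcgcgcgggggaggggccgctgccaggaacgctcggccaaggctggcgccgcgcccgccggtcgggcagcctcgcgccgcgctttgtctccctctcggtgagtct
Pim2: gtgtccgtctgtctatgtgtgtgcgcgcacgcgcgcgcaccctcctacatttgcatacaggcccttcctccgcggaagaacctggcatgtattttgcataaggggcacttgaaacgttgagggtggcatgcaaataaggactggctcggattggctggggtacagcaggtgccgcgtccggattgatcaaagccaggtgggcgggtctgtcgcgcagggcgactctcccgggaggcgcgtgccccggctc
The copy in Socs3 begins 154 bases before the start. A match is a string of letters and was not tested as a binding site, and a window without a match says nothing about sites elsewhere.

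After withdrawal Pim2 fell 2.08-fold and Socs2 fell 1.31-fold on its brightest probe set, and the other 8 genes did not pass the test. Across the reported fit and 13 alternatives, Pim2 passed in all 14, Socs2 in 5 and Socs1, in the other direction, in 5. In bulk RNA fewer cells of a type and less RNA per cell cannot be told apart. Counted over probe sets, 2 of 25 were lower and 0 were higher at an adjusted p under 0.05 in limma, against 1.18% lower, 0.790% higher and 1.97% in either direction among all 45037. Before adjustment, 5 were lower and 3 higher at p under 0.05, against 7.48% and 6.85% of all probe sets. The groups did not overlap, with the withdrawal arrays lower, on 7 of 25 probe sets, against 10.7% of all, and with the withdrawal arrays higher on 3 of 25, against 10.2% of all. Several of these probe sets read the same transcript, so they are not independent. Read from the probe set of highest mean, 2 of the 10 genes were called, against 2.77% of all genes, and the 10 had a median difference of -0.09 on the log2 scale, against 0.01 over all 18193 genes. Differences are withdrawal minus dox, values are log2 RMA expression, and a probe set is called dim if its mean lies below 5.24, the median over all probe sets. Of the 25 probe sets 6 were dim.

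**Figure D1:**
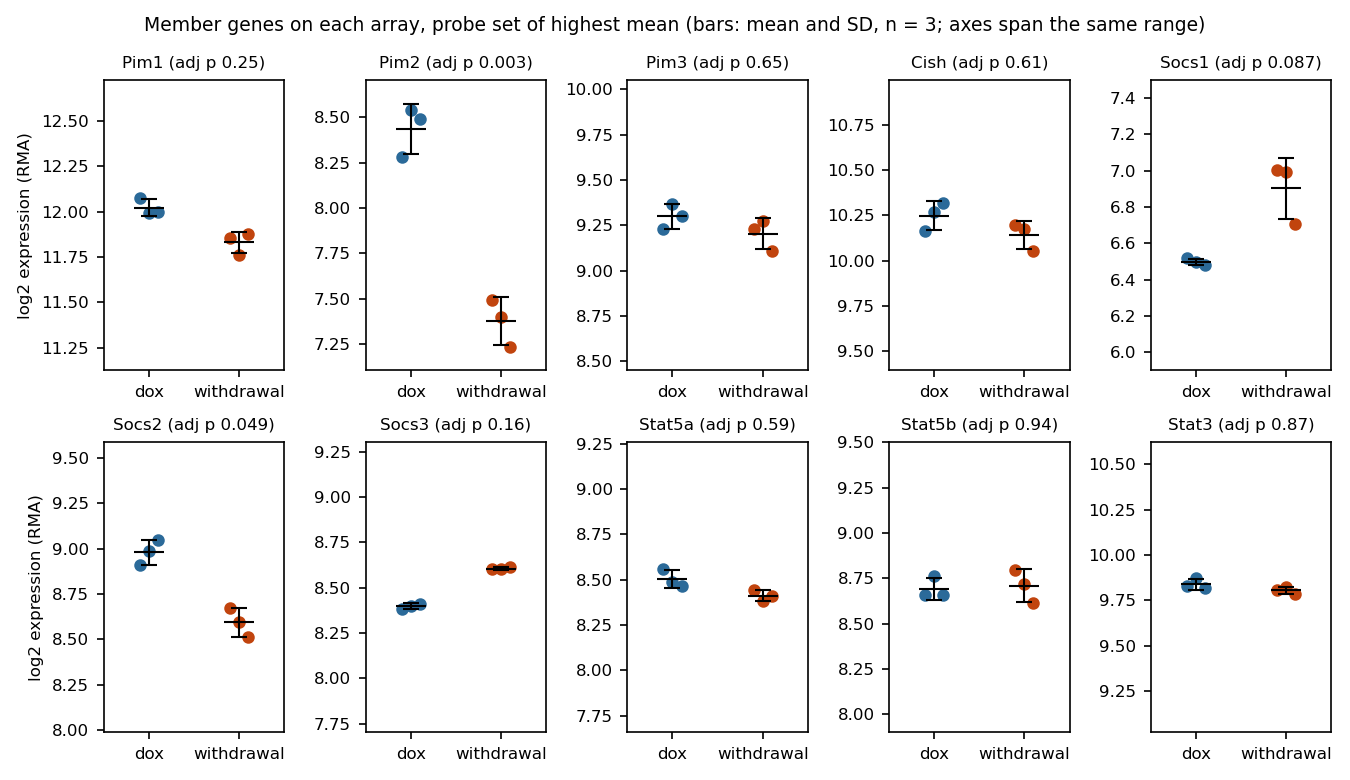
Log2 expression (RMA) of the 10 genes on each array, read from the probe set of highest mean, with blue points for the 3 dox arrays, red points for the 3 withdrawal arrays and bars for the mean and SD. Each axis spans the same range, so the drop of Pim2 can be set beside the small or overlapping differences of Stat5a, Stat5b, Stat3, Cish and Pim3.

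Pim2 encodes a kinase that phosphorylates the death factor Bad and the translation repressor 4E-BP1, and it sustains survival and growth of blood cells. Its single probe set stood at 8.28, 8.54 and 8.49 on the dox arrays and at 7.49, 7.40 and 7.23 on the withdrawal arrays. The highest withdrawal array lay below the lowest dox array. The means were 8.44 ± 0.14 (SD, n = 3) under doxycycline and 7.38 ± 0.13 (SD, n = 3) after withdrawal. The difference was -1.06 ± 0.10 (SE), a 2.08-fold fall with a 95% interval from 1.77-fold to 2.45-fold (limma adjusted p = 0.00304). By size this was the 43rd of the 286 genes that were lower. When any 1 array was left out the difference ran from -1.14 to -0.99 with adjusted p from 0.00854 to 0.0261, and Pim2 kept its call under every alternative tried.

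Pim1, the founding member of the family and a bright transcript here, had a smaller difference. Its brighter probe set stood at 12.08, 11.99 and 12.00 under doxycycline and at 11.85, 11.76 and 11.87 after withdrawal. All withdrawal arrays lay below all dox arrays, but the gap was narrow. The difference was -0.19 ± 0.07 (SE), with a 95% interval from -0.35 to -0.03, and did not pass (limma adjusted p = 0.251). The other probe set of Pim1 gave -0.13 with an adjusted p of 0.421, again without overlap. The interval of Pim1 lies wholly above that of Pim2, which ran from -1.29 to -0.83, though the difference between the genes was not itself tested.

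Pim3, the third kinase of the family, was read by 3 probe sets and did not move in 1 direction. Its brightest stood at 9.23, 9.37 and 9.30 under doxycycline and at 9.23, 9.27 and 9.11 after withdrawal. The groups overlapped, and the difference was -0.09, with a 95% interval from -0.27 to 0.08 (limma adjusted p = 0.646). The others differed by 0.08, with an interval from -0.22 to 0.38, and, on a dim probe set, by -0.09, with an interval from -0.43 to 0.25.

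Cish encodes a protein with an SH2 domain that docks on activated cytokine receptors, and it is among the best known direct targets of Stat5. It stood at 10.16, 10.27 and 10.32 on the dox arrays and at 10.20, 10.18 and 10.06 on the withdrawal arrays. The groups overlapped. The difference was -0.10 ± 0.08 (SE), with a 95% interval from -0.28 to 0.07 (limma adjusted p = 0.606), so a fall of the size seen for Pim2 lies outside the interval, while a small change does not. The pair of palindromes printed above belongs to this gene.

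Socs2, which restrains growth hormone signalling and is also a Stat5 target, was read by 6 probe sets. The brightest stood at 8.91, 8.99 and 9.05 under doxycycline and at 8.67, 8.60 and 8.51 after withdrawal, with no overlap. Its difference was -0.39 ± 0.07 (SE), a 1.31-fold fall with a 95% interval from 1.16-fold to 1.47-fold (limma adjusted p = 0.0485). This call sat at the threshold and was lost without any 1 of the 6 arrays, when the difference ran from -0.43 to -0.35 and the adjusted p from 0.0753 to 0.188. The next brightest probe set, at 8.76, 8.96 and 8.96 under doxycycline and 8.67, 8.54 and 8.45 after withdrawal, differed by -0.34 with an adjusted p of 0.128. A dim probe set differed by -0.33 with an adjusted p of 0.0608, also without overlap. The remaining 3, of which 2 were dim, differed by 0.05, 0.02 and 0.10, and their groups overlapped. With the mean of all 6 probe sets Socs2 differed by -0.15 and did not pass (adjusted p = 0.176).

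Socs1, the strongest inhibitor of the Jak kinases in the family, stood at 6.52, 6.49 and 6.48 under doxycycline and at 7.01, 6.99 and 6.71 after withdrawal. Every withdrawal array was above every dox array, with replicate 3 nearest to them. The difference was 0.40 ± 0.09 (SE), with a 95% interval from 0.19 to 0.62, and did not pass (limma adjusted p = 0.0869). Without withdrawal replicate 3 it was 0.50 and passed at an adjusted p of 0.0261. Across the reported fit and 13 alternatives Socs1 passed in 5, with adjusted p from 0.0196 to 0.271 in limma. Outside these 13, with probe sets averaged by gene, its difference stayed at 0.40 and passed (limma adjusted p = 0.0467).

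Socs3, which binds gp130 and Jak kinases and limits Stat3 signalling, was read by 3 probe sets whose differences were 0.21, 0.18 and 0.15. The brightest stood at 8.38, 8.40 and 8.41 under doxycycline and at 8.60, 8.60 and 8.61 after withdrawal. Its groups were tight and did not overlap, yet the difference of 0.21 ± 0.06 (SE) did not pass (limma adjusted p = 0.163), with a 95% interval from 0.07 to 0.35. Of the others, 1 overlapped between the groups.

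**Figure D2:**
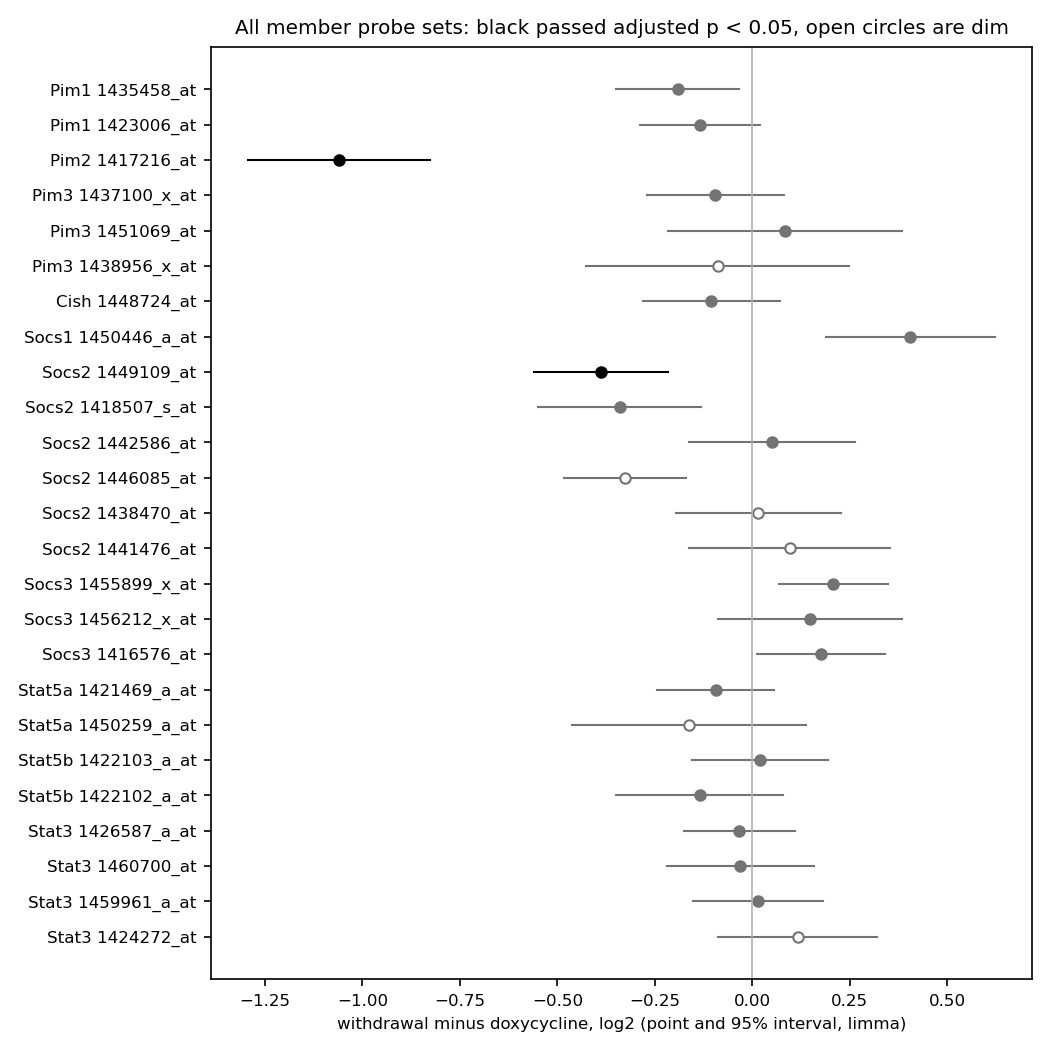
Withdrawal minus doxycycline on the log2 scale for the 25 probe sets of the 10 genes, with points for the difference and lines for the 95% interval from limma, in black where the adjusted p was under 0.05 and with open circles for the 6 dim probe sets. Pim2 at -1.06 stands alone on the left, the 6 probe sets of Socs2 fall into 3 below 0 and 3 near it, and Socs1 and Socs3 lie to the right.

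The transcription factor genes themselves differed little. Stat5a and Stat5b, closely related factors that carry the interleukin 3 signal, and Stat3 were read by 8 probe sets. Their differences ran from -0.16 to 0.12, with adjusted p from 0.582 to 0.957 in limma. On the brightest probe set Stat5a stood at 8.56, 8.49 and 8.47 under doxycycline and at 8.44, 8.38 and 8.41 after withdrawal, a difference of -0.09. These 2 groups did not overlap, whereas those of the other 7 probe sets did. Stat5b stood at 8.66, 8.76 and 8.66 under doxycycline and at 8.79, 8.72 and 8.62 after withdrawal. Stat3 stood at 9.83, 9.87 and 9.82 under doxycycline and at 9.81, 9.82 and 9.78 after withdrawal. Over the 6 probe sets that were not dim, the 95% intervals lay between -0.35 and 0.19. Transcript level does not report phosphorylation, which sets the activity of these factors and was not measured on the arrays.

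Upstream of the Stats, 0 of 7 measured genes of the Jak kinases and other Stat factors passed in limma, against 1.20% higher and 1.57% lower among all 18193 genes, and 0 passed when any 1 array was left out. At an unadjusted p under 0.05, 1 was higher and 0 were lower, against 16.3% of all genes in either direction. The nearest were Stat6 (0.23, adjusted p = 0.280) and Stat2 (0.17, adjusted p = 0.391). Of 19 measured receptor genes 6 were above and 4 below their doxycycline level at an unadjusted p under 0.05, against 16.3% of all genes in either direction. After adjustment 1 was higher and 0 were lower in limma, against 1.20% and 1.57% of all genes. The higher gene was Il5ra, the alpha chain of the interleukin 5 receptor. It stood at 4.33, 4.22 and 4.10 under doxycycline and at 4.67, 4.87 and 4.73 after withdrawal. The difference was 0.54 on a dim probe set (limma adjusted p = 0.0286). Leaving out any 1 of the 6 arrays removed that call (adjusted p from 0.0543 to 0.119). Csf2rb, the beta chain shared by the receptors of interleukin 3, interleukin 5 and GM-CSF, differed by 0.34 (adjusted p = 0.0622) and Epor, the erythropoietin receptor, by -0.37 (adjusted p = 0.190), so neither passed.

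Of 17 measured genes of other brakes on the pathway, 1 was lower and 0 were higher in limma. Among all genes, 1.57% were lower and 1.20% higher. Before adjustment 2 of the 17 were below and 0 above at p under 0.05, against 16.3% of all genes in either direction. The lower gene was Socs5, a family member linked to interleukin 4 and EGF receptor signalling, which stood at 8.53, 8.52 and 8.34 under doxycycline and at 8.03, 7.87 and 7.75 after withdrawal. The groups did not overlap, and the difference was -0.58 ± 0.09 (SE, limma adjusted p = 0.0279). Its other probe set differed by -0.25 and did not pass. The call was kept only without withdrawal replicate 1, and without any other array it was lost, with adjusted p up to 0.124. The phosphatase gene Ptpn6, which encodes SHP-1, differed by -0.27 (adjusted p = 0.160) and the ubiquitin ligase gene Cblb by -0.17 (adjusted p = 0.676).

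Among 25 other known Stat5 or Stat3 target genes 1 was higher and 1 was lower in limma, against 1.20% and 1.57% of all genes. Before adjustment 5 were above and 5 below their doxycycline level at p under 0.05, against 16.3% of all genes in either direction. With members on both sides of 0 the median difference was -0.01. Osm, the oncostatin M gene, a direct Stat5 target that encodes a cytokine of the gp130 family, stood at 9.99, 9.99 and 10.01 under doxycycline and at 10.69, 10.69 and 10.65 after withdrawal. The difference was 0.68 ± 0.06 (SE), a 1.60-fold rise (limma adjusted p = 0.00248), opposite in sign to that of Pim2. It still passed after each omission of 1 array (adjusted p up to 0.0230). Bcl2, the survival gene, differed by -0.40 on its brightest probe set (limma adjusted p = 0.0288), a call that each omission of 1 array removed (adjusted p from 0.0634 to 0.134), and its other 4 probe sets did not pass. Irf8 (-0.53, adjusted p = 0.0537) and Bcl6 (-0.30, adjusted p = 0.123), which encode transcription factors that Stat5 is known to repress, did not pass.

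Of 18 genes whose proteins are substrates or partners of Pim kinases, 1 was higher and 0 were lower in limma. Among all genes, 1.20% were higher and 1.57% lower. Before adjustment 3 of the 18 were above and 2 below at p under 0.05, against 16.3% of all genes in either direction. Cxcr4, the chemokine receptor whose surface level Pim1 promotes, differed by 0.49 (limma adjusted p = 0.0249), and without any 1 array except withdrawal replicate 3 the call was lost (adjusted p up to 0.119). Eif4b, a translation factor, differed by -0.37 (adjusted p = 0.0599) and Cdc25a, a cell cycle phosphatase, by 0.33 (adjusted p = 0.0711). Withdrawal replicate 3 and dox replicate 1 were the arrays with negative scores on the second principal component. Without both, 0 genes of these 5 lists passed in limma, against 0.121% higher and 0.302% lower among all genes. Osm had an adjusted p of 0.0605 in that limma fit. Before adjustment that fit had p under 0.05 for 0 of 7 Jak and Stat genes, 8 of 19 receptors, 3 of 17 brakes, 9 of 25 targets and 3 of 18 Pim substrates, against 14.1% of all genes.

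**Figure D3:**
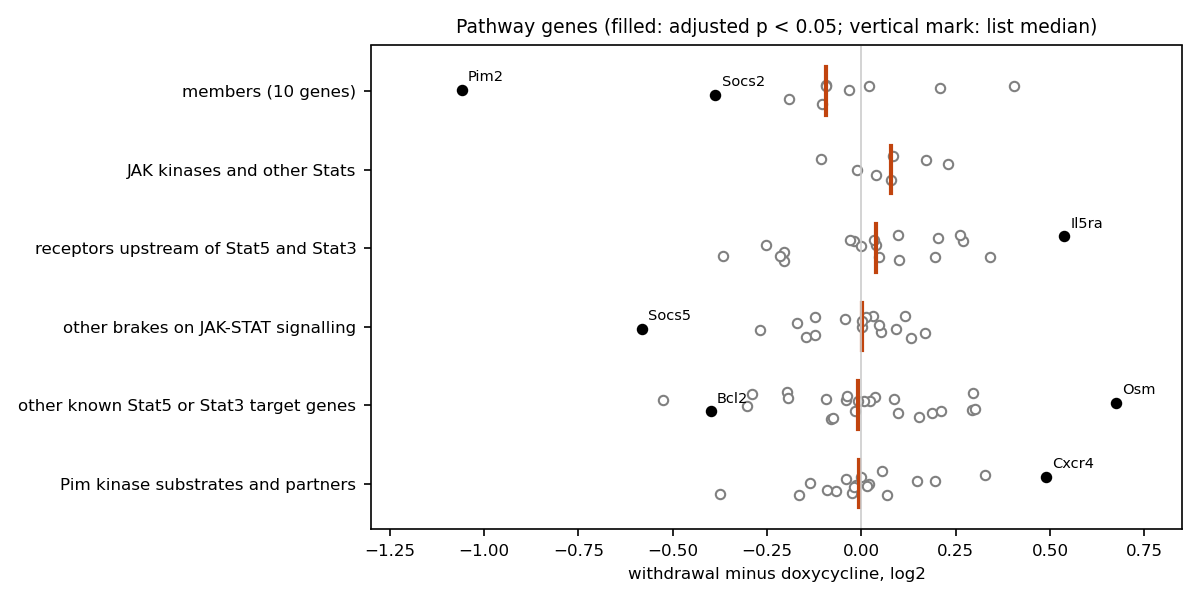
Withdrawal minus doxycycline on the log2 scale for each measured gene of the 10 members and of 5 related lists, with filled points for an adjusted p under 0.05 and a vertical mark at the median of each list. Most genes lie near 0 and each list has at most 2 called genes, with Pim2 at -1.06 and Osm at 0.68 at the ends.

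The genes whose profiles over the 6 arrays, each centred on its own mean, lay closest to that of Pim2 were Tmem176b, Rnase6 and Tmem176a, at root mean square differences of 0.063, 0.081 and 0.089 on the log2 scale among 7832 candidates with a mean of at least 7. Tmem176b and Tmem176a encode paired membrane proteins of myeloid cells and Rnase6 a secreted ribonuclease. They differed by -1.15, -0.94 and -1.02 between the groups. Closest to Socs2 were Naa30 (0.029), Trim34a (0.034) and Dnph1 (0.035), which differed by -0.41, -0.42 and -0.32, and of which only Naa30 passed (limma adjusted p = 0.0412), a call that each omission of 1 array removed (adjusted p up to 0.171). With 2 groups of 3 arrays, likeness mostly reflects the size of the difference between the groups.

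Marker lists of several lineages moved with the groups, where 1.20% of all genes were higher and 1.57% lower. After withdrawal 6 of 7 eosinophil markers (Epx, Prg2, Prg3, Il5ra, Siglecf, Alox15), 3 of 8 neutrophil markers (Elane, Ctsg, Camp) and 3 of 9 mast cell and basophil markers (Mcpt8, Ms4a2, Hdc) were higher, and 1 of the last list (Mcpt2) was lower. Lower were 5 of 9 megakaryocyte and red cell markers (Pf4, Ppbp, Gp9, Hemgn, Rhag), 4 of 9 monocyte and macrophage markers (Csf1r, Cd68, C1qc, Mpeg1) and 2 of 8 progenitor markers (Cd34, Lmo2). The mean log2 level of the eosinophil list was 8.07 to 8.15 on the dox arrays and 8.69 to 8.80 on the withdrawal arrays, and that of the megakaryocyte and red cell list 7.18 to 7.31 and 6.40 to 6.44. For the neutrophil list it was 13.90 to 13.92 and 14.17 to 14.18, for mast cells and basophils 9.18 to 9.19 and 9.41 to 9.50, for monocytes and macrophages 9.44 to 9.48 and 9.20 to 9.24, and for progenitors 9.85 to 9.91 and 9.77 to 9.84. The mast cell and basophil, the eosinophil, and the megakaryocyte and red cell lists each held 2 dim markers. Among these were the called Mcpt2, Il5ra and Ppbp. None of the 8 progenitor markers was dim, while 4 of 7 T and B lymphocyte markers were. Of these 7 lymphocyte markers 0 passed in limma, with 1 higher and 1 lower before adjustment. Without withdrawal replicate 3 and dox replicate 1 the higher markers numbered 1 for eosinophils, 0 for neutrophils and 2 for mast cells and basophils, and the lower ones 3 for megakaryocytes and red cells, 0 for monocytes and macrophages and 0 for progenitors, against 0.121% higher and 0.302% lower among all genes in limma. The median differences stayed close, at 0.69 without these 2 arrays against 0.72 with them for eosinophils, 0.29 against 0.29 for neutrophils, 0.11 against 0.15 for mast cells and basophils, -0.65 against -0.59 for megakaryocytes and red cells and -0.31 against -0.32 for monocytes and macrophages. For progenitors the median was 0.06 against -0.02. At an unadjusted p under 0.05 in the smaller fit, 6 of 7 eosinophil and 5 of 8 neutrophil markers were above their doxycycline level. So were 3 of 9 mast cell and basophil and 1 of 8 progenitor markers, against 7.07% of all genes. Below their doxycycline level were 8 of 9 megakaryocyte and red cell and 6 of 9 monocyte and macrophage markers. So were 2 of 9 mast cell and basophil and 2 of 8 progenitor markers, against 7.04% of all genes. The part of these shifts in the differences of Pim2, Socs2 and the other genes was not tested.

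The arrays were close to each other, with medians from 5.22 to 5.27 and Pearson correlations across probe sets from 0.994 to 0.998. The first principal component, with 47.7% of the variance of the brighter probe sets, separated the groups. On the second, with 31.9%, withdrawal replicate 3 (-23.0) and dox replicate 1 (-11.4) had negative scores and the other arrays positive ones. Dox replicate 1 was no more extreme there than withdrawal replicate 1 (11.9) or dox replicate 2 (12.4). Without both withdrawal replicate 3 and dox replicate 1, Pim2 differed by -1.07 (limma adjusted p = 0.0267) and Socs2 by -0.38 (limma adjusted p = 0.186). Mecom, the gene of Evi1, was read by 3 dim probe sets with means from 2.63 to 3.66, none of which passed (adjusted p from 0.615 to 0.881 in limma). Probes for the natural transcript may miss the codon-optimized transgene, and the labels are therefore not checked by these values. The number of arrays limits the precision of every value above.

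**Figure D4:**
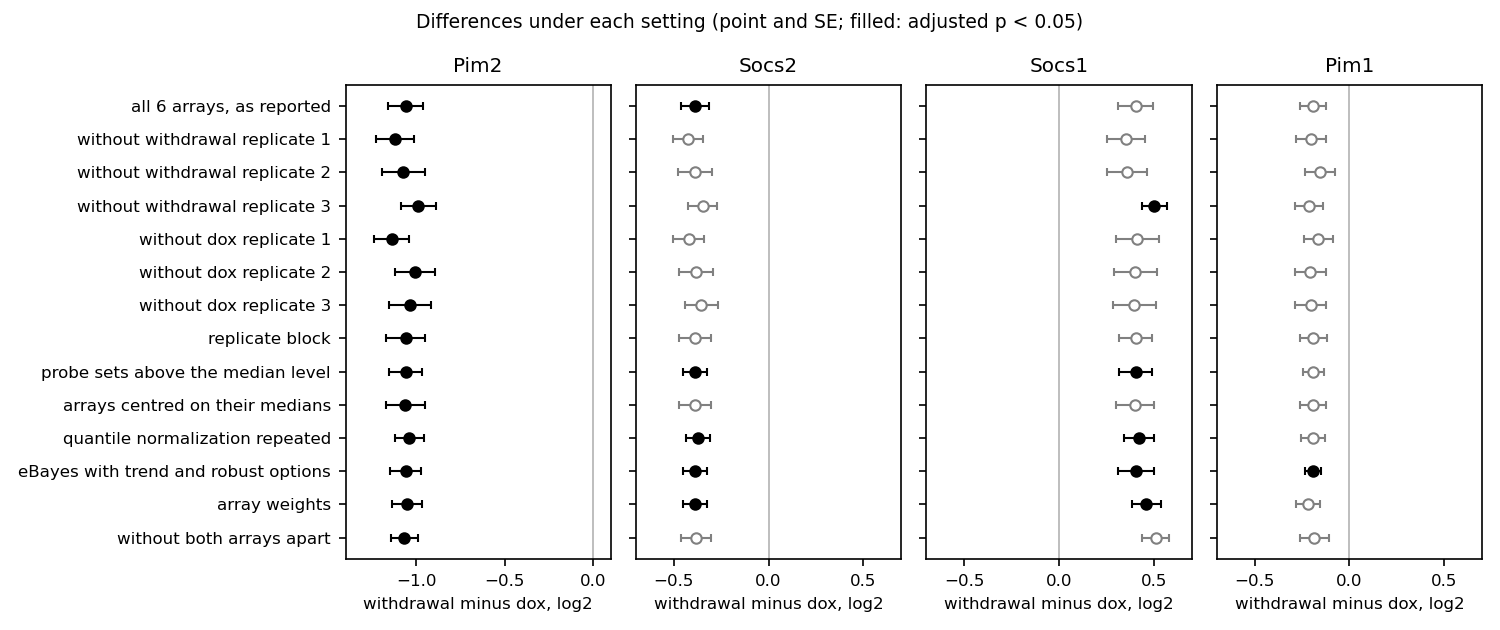
Withdrawal minus doxycycline on the log2 scale, with bars for the SE, for the brightest probe sets of Pim2, Socs2, Socs1 and Pim1 under the reported setting and 13 alternatives, filled where the adjusted p was under 0.05. Pim2 is filled in all 14, Socs2 and Socs1 in 5 each and Pim1 in 1, while each gene keeps its direction.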

How the data were processed

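Total RNA of 6 samples was amplified as cDNA, labelled with biotin and hybridised to 1 array each, per the labels' protocols. The authors made the deposited log2 values, 1 per probe set and array, with RMA, as the submitters' processing notes say. This method gives the probe intensities of all arrays a common distribution before they are summarised into probe sets. That would hide a change of most transcripts in 1 direction, and the method compresses differences of dim ones. Its version is not given in the sources used here.

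Of 45101 rows, 64 manufacturer controls were left out. The platform annotation gave 34945 probe sets 1 symbol, 932 several and 9160 none, and 34741 of the first matched a RefSeq table of GRCm38.p6. Groups came from the sample titles. The fit on all 6 arrays used limma 3.58.1 (lmFit, then eBayes) under R 4.3.3, with no covariate, and two-sided p-values were adjusted by Benjamini-Hochberg over 45037 probe sets (threshold 0.05). Rose, fell, higher and lower, as counts, mean past that threshold. A gene of several probe sets was read from the one of highest mean. Every adjusted p comes from limma.

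The members, the lists and the naming rule were chosen with earlier results of these data known. Named were all members, called genes of each list, up to 2 of the largest others of each pathway list and the 3 closest profiles. Of the marker lists only called genes were named. A simulation changed 200 of 45037 probe sets, none of them dim, with noise drawn separately for each probe set and array. In it, 89% of those changed by 1 and 46% of those changed by 0.5 on the log2 scale were found. There were 2 false calls of 137. These rates do not cover changes of dim probe sets or noise shared across probe sets. Alternatives were each array left out, withdrawal replicate 3 and dox replicate 1 both left out, the replicate block and a filter on dim probe sets. Further ones were median centring, repeated quantile normalization, trend and robust options, array weights, probe sets averaged by gene and probe sets without shared names. Figures were drawn with matplotlib 3.10.9.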

Additional observations from a re-analysis of the deposited data

How the results depend on the processing

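Pim2 kept its direction and call under every alternative (adjusted p up to 0.0324 in limma). The number of lower probe sets among the 25 went from 2 to 1 with the replicate block and with arrays centred on their medians. It was also 1 without both withdrawal replicate 3 and dox replicate 1, and without any 1 array (lowest 1, highest 1). Socs2 was lost in each of these fits. The number went to 4 with trend and robust options, which also called a second probe set of Socs2 and 1 of Pim1. The number of higher ones went from 0 to 1 with repeated quantile normalization and with array weights, to 2 above the median level and with trend and robust options (Socs1 and Socs3), and ran from 0 to 1 without any 1 array. Over all probe sets, 356 higher and 530 lower became 94 and 197 with the replicate block and 862 and 1082 above the median level. They became 1071 and 1389 with trend and robust options and 758 and 962 with array weights. Without both withdrawal replicate 3 and dox replicate 1 they were 28 and 94, and without any 1 array 88 to 256 and 173 to 346. The cause of these shifts was not tested, and the fits that leave arrays out also rest on fewer arrays. Deviations from the group means of same-numbered arrays correlated at -0.30, 0.46 and -0.03. Those of arrays with different numbers ran from -0.60 to 0.55. With 3 arrays per group these values cannot decide whether the arrays are paired, and the reported fit left them unpaired.

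Small differences that were not called changed sign as follows. The dim probe set of Pim3 was 0.0026 with array weights and 0.090 without both withdrawal replicate 3 and dox replicate 1. It ran from -0.19 to 0.090 without any 1 array. Of Socs2, the probe set with a reported difference of 0.02 was -0.0011 with repeated quantile normalization and -0.020 with array weights, and ran from -0.045 to 0.071 without any 1 array, while that at 0.05 ran from -0.0095 to 0.12. The second brightest probe set of Stat3 was 0.012 with array weights and 0.029 without both withdrawal replicate 3 and dox replicate 1. It ran from -0.068 to 0.038 without any 1 array, and the third ran from -0.021 to 0.066. The brighter probe set of Stat5b ran from -0.023 to 0.066. When probe sets were averaged by gene Stat5b was -0.058 and Stat3 0.017.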

Other observations

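The nearest measured genes on each side of Pim2 in the RefSeq gene order of mouse assembly GRCm38.p6 were looked up after the values of Pim2 were seen. Otud5, a deubiquitinase gene, differed by -0.01, Kcnd1, a potassium channel gene, by -0.08 and Gripap1 by 0.01 before Pim2. Slc35a2, which encodes a transporter of UDP-galactose, differed by -0.04, Pqbp1 by 0.03 and Timm17b, a subunit of a mitochondrial import complex, by -0.06 after it. The adjusted p in limma of these 6 genes ran from 0.752 to 0.986, and the fall of Pim2 was -1.06.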
